A study of Caenorhabditis elegans with 43 samples.

Results

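The genes described here are the aspartic, cysteine and prolyl carboxypeptidase-type proteases of the C. elegans gut and lysosome, taken as every row of the count table whose gene symbol starts with asp, cpr, cpl, cpz or pcp followed by a number. The rule found 33 of the 20182 genes in the table. They are 17 asp genes (cathepsin D-like aspartic proteases), 8 cpr genes (cathepsin B-like cysteine proteases), cpl-1 (a cathepsin L-like cysteine protease), 2 cpz genes (cathepsin Z-like cysteine proteases) and 5 pcp genes (serine peptidases related to prolyl carboxypeptidase). Of the 33, 26 had a mean of at least 1 CPM (counts-per-million) and were tested: 11 asp genes, 10 of the 11 cysteine protease genes and all 5 pcp genes.

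Aspartic and cysteine cathepsins are made as inactive precursors and work at acid pH, in lysosomes or after secretion into an acid space. In worms they digest bacterial food in the lumen and lysosomes of the intestine, a tube of large polyploid cells that also serves as the main storage organ. Prolyl carboxypeptidases remove residues that follow a proline at the end of a peptide. Some members act elsewhere: CPL-1 is needed for yolk processing in embryos and, with CPZ-1, is known for roles in the shedding and remodelling of the cuticle at molts, and ASP-3 and ASP-4 are lysosomal proteases required for necrotic death of neurons. Cystatins are the natural inhibitors of the cysteine proteases.

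RNA came from whole worms grown from arrested L1 larvae at 25 °C on E. coli NA22 and collected at steps of 2 h between late L2 or early L3 and the young adult, with 1 library for each strain and hour. The strains were let-7(n2853) (10 libraries, 18 to 36 h), lin-41(xe11) (11 libraries, 18 to 38 h), lin-41(xe11);let-7(n2853), the double mutant of both alleles (11 libraries, 18 to 38 h) and the wild type N2 (11 libraries, 18 to 38 h). The n2853 allele is a point mutation in the seed of the let-7 microRNA, and xe11 is an allele of lin-41 with changed let-7 binding sites, described as made to pair with the n2853 form of let-7; neither was read from these data. Strains were compared in an early window of 18 to 26 h and a late window of 28 to 36 h, with 5 libraries per strain in each. The labels do not say whether the hours of a strain are separate cultures, so a p-value here measures the spread between these libraries. In RNA of whole worms, fewer cells of a type and less RNA per cell cannot be told apart, and the tissue in which a protease is expressed is not measured.

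Depth was 22891666 to 32886532 counts per library in let-7(n2853), 11192438 to 16452768 in lin-41(xe11), 12740611 to 24993324 in the double mutant and 12586079 to 16118437 in N2. The let-7(n2853) libraries are thus deeper as a group, and that strain and any batch of preparation or sequencing cannot be told apart in the comparisons that use it. The targeted gene lin-41 lay at 106 to 161 CPM in let-7(n2853), 41.9 to 102 CPM in lin-41(xe11), 47.5 to 104.4 CPM in the double mutant and 28.3 to 44.5 CPM in N2 in the late window. All 17 listed markers of the intestine, among them the transcription factor gene elt-2 and the esterase gene ges-1, were detected, so the tissue named for these proteases is present in the libraries.

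Most of the members are on chromosome V, and some are direct neighbours. In the Ensembl release 115 annotation of WBcel235, all 33 are protein-coding, and 23 of them (69.7%) are on chromosome V, which holds 25.2% of the annotated genes in the table; no test was run on this share. The genes asp-17, asp-16, asp-15 and asp-1 follow each other on the minus strand of V:19035723-19050752, where asp-1 takes V:19049562-19050752 as a single exon. The genes asp-6, asp-12 and asp-5 follow each other at V:8267511-8274044, and the remaining pairs of neighbours are asp-7 with asp-8, asp-18 with asp-19, cpr-5 with cpr-8, and pcp-2 with pcp-3. Whether the counting used strand or split reads between related genes is not stated in the labels or files, so asp-2 (overlapping inx-10), asp-4 (overlapping R12H7.4) and cpz-2 (overlapping gcy-34), each with its partner on the opposite strand, are less certain than the rest.

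The 7 members that were not tested had few or no counts over the 43 libraries. The totals were 202 counts for cpr-2, 168 for asp-7, 128 for asp-9, 10 for asp-15, 9 for asp-16, 1 for asp-18 and 0 for asp-19. In single libraries asp-9 reached 36 counts, or 2.54 CPM, in N2 at 38 h, and cpr-2 reached 32 counts, or 1.27 CPM, in let-7(n2853) at 18 h. Neither hour has a second library of that strain. In the row of neighbours on chromosome V that ends with the abundant asp-1, asp-15 and asp-16 had at most 2 counts in any library.

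The other 26 genes covered a wide range of levels. Given as CPM per kb of exon so that genes can be compared, the median over the 11 N2 libraries ran from 1.59 for asp-17 to 1858 for asp-1, and the median of the 12967 genes with a length was 11.9. By that measure, 15 of the 26 were in the top 5% of genes and 5 in the top 1%. The order was led by 4 aspartic proteases, asp-1, asp-3 (1274 CPM per kb), asp-6 (1040.1) and asp-2 (909), and then held cpr-4 (899.6), cpr-5 (805), asp-5 (736), cpz-1 (708), cpl-1 (651) and cpr-9 (554). The ranges over the N2 libraries of asp-1 (1574 to 2408) and asp-3 (1114 to 1645) overlapped, as did those of every gene in this list with the one after it. The middle of the order held cpz-2 (411 CPM per kb), cpr-1 (361), cpr-6 (256), asp-4 (181) and pcp-3 (175). Below 100 CPM per kb were asp-13, pcp-1, pcp-2, asp-14, cpr-8, pcp-5, cpr-3, pcp-4 and asp-8, with asp-12 (4.32) and asp-17 lowest.

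**Figure D1:**
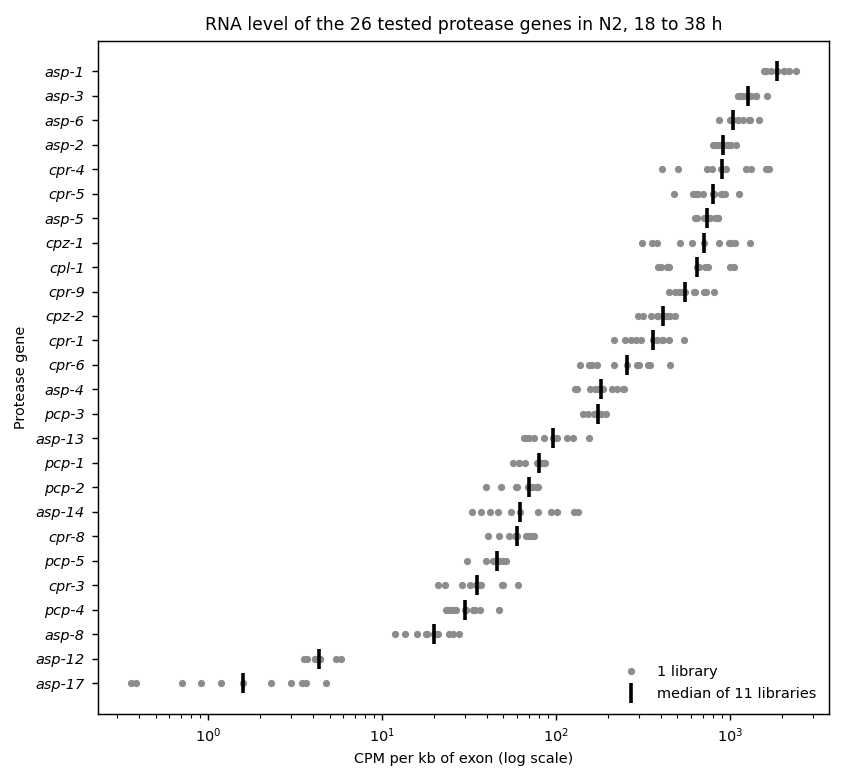
RNA level of the 26 tested protease genes in N2, as CPM per kb of exon on a log axis, with 1 point for each of the 11 libraries of 18 to 38 h and a bar at their median. asp-1 is highest at a median of 1858 and asp-17 lowest at 1.59, and the points of asp-17, cpz-1, cpr-4 and asp-14 spread widest.

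Together the 33 genes took 1.15 to 2.03% of the TMM-scaled counts of a library (TMM, trimmed mean of M values, is the scaling behind all CPM values here). In the late window their summed level was 14600 ± 1801 CPM in let-7(n2853), 16582 ± 2025 CPM in lin-41(xe11), 17330 ± 2554 CPM in the double mutant and 16119 ± 1310 CPM in N2 (SD, n = 5 each). In the early window it was 12796 ± 1145 CPM in let-7(n2853), 15500 ± 2298 CPM in lin-41(xe11), 16018 ± 2411 CPM in the double mutant and 14598 ± 1644 CPM in N2. The sum was thus lowest in let-7(n2853) in both windows, with overlapping ranges, and this difference was not tested.

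Along the N2 time course the 4 most abundant aspartic proteases had no called change, and asp-17 was the member that rose most. A gene counts as called where its adjusted p is under 0.05 in edgeR's quasi-likelihood test with Benjamini-Hochberg adjustment over all 13295 genes tested, here for a slope per 2 h beside terms for a rhythm of 8 h. Of the 26 members, 10 had a called slope (8 rising, 2 falling), where 60.3% of all genes did (33% rising, 27.3% falling). The members' share is below that background, so a called slope is no mark of these genes. DESeq2 called 10 members and limma on the log2 values 8. With scaling by library size alone 5 members rose and 3 fell, and 43.6% of all called genes rose, against 54.8% in the TMM-scaled fit.

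The low-level asp-17 was near its floor at the start and rose through the course. It had 0.436, 0.468, 0.853, 1.102 and 1.43 CPM in N2 at 18 to 26 h, 1.92, 2.77, 3.61, 4.23 and 4.46 CPM at 28 to 36 h and 5.79 CPM at 38 h. Each of the 11 values was above the one before it, and the slope was 0.39 ± 0.02 log2 per 2 h (SE, adjusted p = 1.83e-06, edgeR). In the other strains asp-17 was also higher late than early, with 1.04 to 2.63 CPM late and 0.62 to 1.13 CPM early in let-7(n2853), 2.52 to 4.24 and 0.945 to 1.998 CPM in lin-41(xe11), and 2.11 to 4.88 and 0.64 to 2.39 CPM in the double mutant. The slope of asp-17 was the steepest among members; its neighbours asp-15 and asp-16 stayed at the floor and asp-1, next in the row, had a slope of 0.02 ± 0.02 that was not called (adjusted p = 0.406).

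The remaining slopes were small. Among the cysteine proteases, cpr-4 (secreted cathepsin B) rose by 0.13 ± 0.03 log2 per 2 h (SE, adjusted p = 0.00408), cpl-1 by 0.11 ± 0.02 (adjusted p = 0.00114), cpr-6 by 0.09 and cpz-1 by 0.09, and among the aspartic proteases the lysosomal asp-4 by 0.10 ± 0.01 (adjusted p = 1.87e-05) and asp-8 by 0.08. The prolyl carboxypeptidase-like pcp-3 rose by 0.03. Of the members that fell, cpr-8 had a slope of -0.06 ± 0.01 (adjusted p = 0.00745) and cpz-2 had -0.04 ± 0.01 (adjusted p = 0.0168). The 4 cysteine proteases with a rising slope lost their call when the rhythm terms were left out, which left 6 members called, and they had the 4 largest fitted swings within a cycle in N2.

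For cpr-4 the N2 libraries held 568, 462, 830.4, 1405 and 1497 CPM at 18 to 26 h, 888, 1079, 1901, 1813 and 1016 CPM at 28 to 36 h and 1008 CPM at 38 h. Its highs stand at 24 to 26 h and at 32 to 34 h. For cpl-1 they held 533, 791, 522, 478 and 774 CPM at 18 to 26 h, 857, 458, 519, 1195 and 1265 CPM at 28 to 36 h and 898 CPM at 38 h. Its highs stand at other hours, at 20 h, at 26 to 28 h and at 34 to 36 h. The values of cpr-8 were 81.1, 81.7, 65.9, 74.3 and 77.0 CPM at 18 to 26 h, 63.8, 64.5, 78.0, 59.3 and 44.9 CPM at 28 to 36 h and 51.3 CPM at 38 h. Those of cpz-2 were 758, 713, 608, 597 and 684 CPM at 18 to 26 h, 659, 643, 645, 548 and 463 CPM at 28 to 36 h and 494 CPM at 38 h. Both genes were lower at 36 and 38 h than in any earlier N2 library.

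Of the 4 most abundant genes none had a called slope in N2. Over the libraries of a strain, asp-2 had 1019.5, 1195 and 1512 CPM (lowest, median, highest) in let-7(n2853), 1012, 1382 and 1627 CPM in lin-41(xe11), 1008, 1335 and 1753 CPM in the double mutant and 1102, 1255 and 1500.3 CPM in N2. The 4 ranges overlapped. The slope of asp-2 in N2 was 0.02 ± 0.01 log2 per 2 h (adjusted p = 0.162), that of asp-3 0.03 ± 0.01 (adjusted p = 0.0707) and that of asp-6 0.00 ± 0.02 (adjusted p = 0.914).

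Most of the cysteine proteases swung with a period of 8 h, which is about the spacing of larval molts at this temperature, while no abundant aspartic protease had a called rhythm. The test, added after the course had been looked at, asks whether a cosine of 8 h beside a straight trend improves the fit of a strain. In let-7(n2853), 10 of the 26 members were called, where 25.9% of all genes were, and in lin-41(xe11) the same 10, where 17.8% were. These are 9 of the 10 tested cysteine proteases, namely cpl-1, cpr-1, cpr-3, cpr-4, cpr-5, cpr-6, cpr-8, cpr-9 and cpz-1, and the aspartic protease asp-13. Over all genes, 2016 (15.2%) were called in both strains. The remaining cysteine protease, cpz-2, the other 10 aspartic proteases and the 5 pcp genes were called in no strain.

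In N2 the test called 4 members, cpl-1, cpr-6, cpr-9 and cpz-1, where 3.13% of all genes were called, and 9 members had an unadjusted p under 0.05. In the double mutant edgeR called 0 members and 0% of all genes; 14 members had an unadjusted p under 0.05 there, DESeq2 called 9 and limma 4. In let-7(n2853) and lin-41(xe11) 11 members each had an unadjusted p under 0.05. A call in one strain and none in another is not a test of a difference, and none was run on the rhythm. The N2 count rests on single libraries, since it was 0 without any 1 of the libraries of 20, 22, 26, 30, 32, 34 or 36 h, 1 without 24 h and 2 without 18 h. In lin-41(xe11) it was 6 without 32 h, and in the double mutant 3 without 20 h and 6 without 30 h.

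With the 8 h cycle cut at 18 h, the rhythmic members are given in 2 groups by the hour of their first fitted peak. A peak at 26 h has the same phase as one at 18 h, so the names early and late depend on that cut. The late group comes before the next peaks of the early group, and the separation of the groups was not tested. An early group held cpl-1 (18.9 to 19.9 h over the 4 strains), cpr-6 (19.3 to 19.9 h), cpz-1 (19.3 to 19.9 h) and asp-13 (19.1 to 20.1 h). A late group held the other cathepsin B genes, cpr-3 (23.6 to 24.3 h), cpr-4 (24.5 to 25.2 h), cpr-5 (24.7 to 25.3 h), cpr-8 (24.5 to 25.9 h), cpr-9 (24.8 to 25.6 h) and cpr-1 (25.1 to 25.9 h). Of the 2016 genes called in both strains, by the fit in lin-41(xe11), 21.3% had their first peak at 18 to 20 h, 33.3% at 20 to 22 h, 21.6% at 22 to 24 h and 23.8% at 24 to 26 h. The 10 members had counts of 4 at 18 to 20 h, 0 at 20 to 22 h, 1 at 22 to 24 h and 5 at 24 to 26 h in that fit. The course spans fewer than 3 cycles, so period and peak hour are known only roughly, and a period of 9 h gave 0 called members in let-7(n2853), lin-41(xe11) and N2. A period of 7 h kept 8 of the 10 calls in let-7(n2853), 0 of 10 in lin-41(xe11) and 0 of 4 in N2.

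The largest swing was that of cpz-1, the cathepsin Z linked to molting. It had 376, 1464, 702, 227 and 681 CPM at 18 to 26 h and 1216, 365, 228, 709 and 1099 CPM at 28 to 36 h in let-7(n2853), and 864, 1198, 621, 244 and 918 CPM and 775, 326, 368, 943 and 1022 CPM in lin-41(xe11). In the double mutant it had 437, 1355, 631, 557 and 702 CPM and 1176, 171, 247, 855 and 889.8 CPM, and in N2 603, 1014, 514, 354 and 703 CPM and 861, 381, 309.7, 1066 and 1290.5 CPM. In every strain it was high at 20 h, lower at 24 h, high again at 26 or 28 h, low at 30 and 32 h and high at 36 h. The fitted range from trough to peak was 2.43 log2 in let-7(n2853) (adjusted p = 0.00915, edgeR), 1.92 in lin-41(xe11) (adjusted p = 0.00759), 1.78 in the double mutant (adjusted p = 0.116) and 1.68 in N2 (adjusted p = 0.0499).

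The cathepsin B gene cpr-6 followed the same hours. It had 194, 534, 307, 114 and 293 CPM early and 513, 169, 122, 332 and 487 CPM late in let-7(n2853), against 272, 381, 217, 194 and 323 CPM early and 371, 203, 174, 439 and 571 CPM late in N2. Its highs and lows stood at the hours of cpz-1, and its fitted range was 2.09 log2 in let-7(n2853), 1.39 in the double mutant, 1.51 in lin-41(xe11) and 1.30 in N2. For cpl-1 the ranges were 1.73, 1.19, 1.17 and 1.10 log2 in let-7(n2853), lin-41(xe11), the strain with both alleles and N2, and for asp-13 in the same 4 strains they were 1.15, 0.80, 0.76 and 0.88 log2.

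Other cathepsin B genes had their highs partly at other hours. cpr-4 had 483, 328, 338, 872 and 1119 CPM at 18 to 26 h and 768, 615, 1127, 1531 and 831 CPM at 28 to 36 h in let-7(n2853), 565, 452, 705, 1663 and 1575 CPM and 804, 1242, 2136, 1864 and 829 CPM in lin-41(xe11), and 757, 477, 540.2, 1669 and 1805 CPM and 899.9, 1118, 2253, 2144 and 795 CPM in the double mutant. At 20 h, where cpz-1 was high, cpr-4 was at its lowest in each of the 4 strains. At 36 h cpr-4 was again below its values of 32 and 34 h. The highs overlapped in part: at 34 h in N2 cpr-4 had 1813 CPM and cpz-1 1066 CPM. The range of cpr-4 was 1.29 log2 in let-7(n2853) (adjusted p = 0.0109), 1.58 in lin-41(xe11) (adjusted p = 0.0137), 1.75 in the double mutant (adjusted p = 0.0511) and 1.23 in N2 (adjusted p = 0.0559). In let-7(n2853) and lin-41(xe11) the ranges were 1.55 and 1.31 log2 for cpr-1, 1.38 and 1.04 for cpr-9, 1.11 and 0.85 for cpr-3, 0.78 and 1.01 for cpr-5, and 0.41 and 0.55 for cpr-8. The neighbouring genes cpr-5 and cpr-8 shared the late peak. The aspartic proteases asp-1, asp-3 and asp-6 also had first peaks at 23.6 to 24.7 h, but with fitted ranges of only 0.26 to 0.57 log2 and no call.

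**Figure D2:**
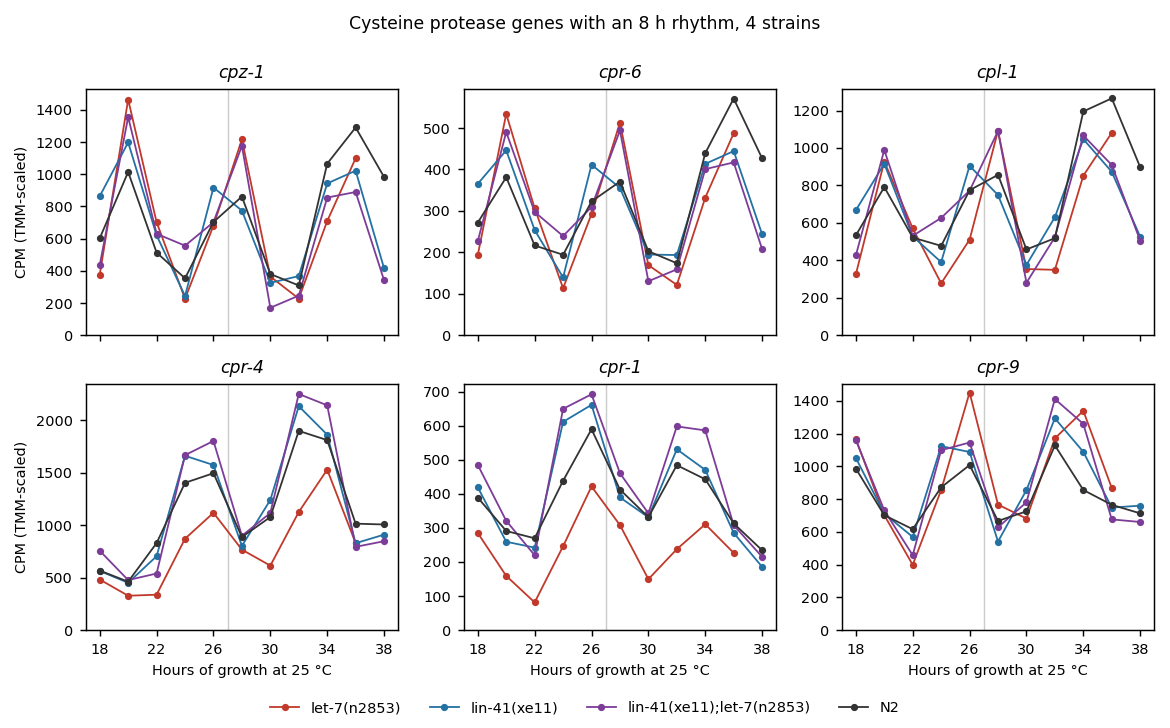
TMM-scaled CPM of 6 cysteine protease genes by hours of growth at 25 °C, 1 point per library, in let-7(n2853), lin-41(xe11), the double mutant and N2, with a grey line between the windows. cpz-1, cpr-6 and cpl-1 (top) are high at 20 h, at 26 or 28 h and at 34 to 36 h, and cpr-4, cpr-1 and cpr-9 (bottom) at 24 to 26 h and at 32 to 34 h. In each strain cpr-1 and cpr-9 are also higher at 18 h than at 20 and 22 h.

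**Figure D3:**
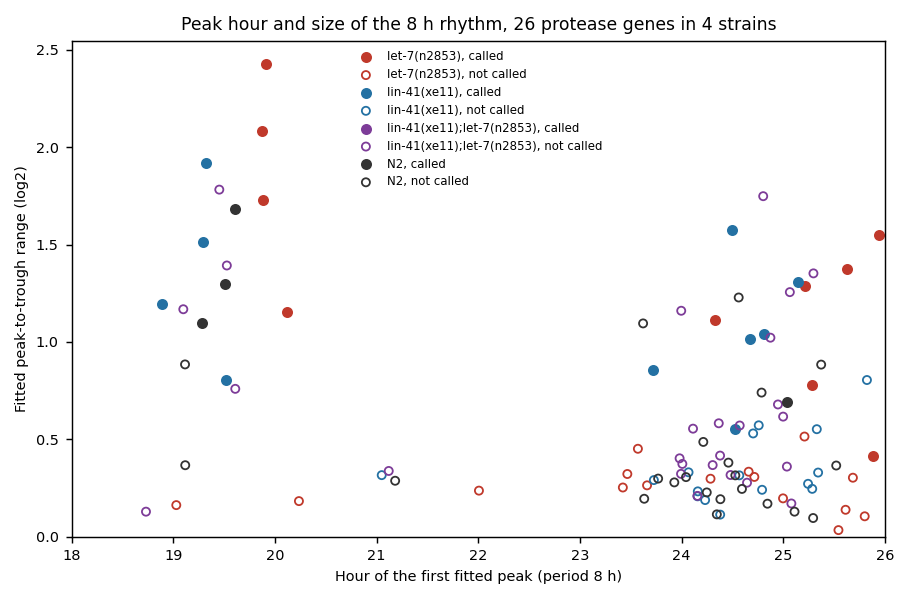
Hour of the first fitted peak of an 8 h rhythm (x axis) against the fitted range from trough to peak in log2 (y axis) for the 26 genes in each strain, filled where edgeR's adjusted p was under 0.05. The filled points stand at 18.9 to 20.1 h or at 23.7 h and later, with the 3 largest ranges (2.43, 2.09 and 1.92) in the early group.

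Of the lists set beside the proteases, 7 of 8 epidermis genes, 7 of 10 pharynx genes and 8 of 17 intestine genes had a called rhythm in let-7(n2853), and 6 genes of each list had one in lin-41(xe11). Of all genes, 25.9% had one in let-7(n2853) and 17.8% in lin-41(xe11). None of the 12 germline genes did in either strain, 1 of 10 neuron genes did in let-7(n2853) and none in lin-41(xe11), and 1 of 7 muscle genes did in let-7(n2853) and none in lin-41(xe11). Among 34 tested lysosome genes, 10 were called in let-7(n2853) and 5 in lin-41(xe11), which is near the shares of all genes. They were led by the acid ceramidase gene asah-1 (0.86 and 0.81 log2). The cystatin gene cpi-1 was called in let-7(n2853) (1.73 log2), and cpi-2 in no strain. Of 14 other peptidase and peptide transporter genes, 5 were called in let-7(n2853) and 6 in lin-41(xe11), led by pept-3.

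In let-7(n2853) the aspartic proteases asp-1, asp-3 and asp-6, the cathepsin B genes cpr-1 and cpr-4 and pcp-4 were lower than in N2 in both windows, and cpr-8 was higher in both, its early call being kept in 4 of 10 fits without an hour. Of the 10 members with the highest level per kb in N2, the other 6 (asp-2, cpr-5, asp-5, cpz-1, cpl-1 and cpr-9) passed in neither window. Strains were compared in 1 fit of the 40 libraries of 18 to 36 h with a term for each hour, so that each library is set against those of its own hour. In the late window 11 of 26 members were called, 4 higher and 7 lower, where 23% of all genes were (10.4% higher, 12.6% lower). In the early window 7 were called, 1 higher and 6 lower, where 18.5% of all genes were (8.79% higher, 9.73% lower). The members' share was 42.3% late and 26.9% early, the early one not far from the background. The members' median log2 fold change was -0.11 late and -0.05 early, beside -0.02 late over all genes. No member differed by a log2 fold change of 1 or more.

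The share of higher genes depends on the scaling. With scaling by library size alone, 69.3% of the genes called late were higher, against 45.3% in the TMM-scaled fit, and 71.2% against 47.4% early. The members called were then 4 higher and 5 lower late, and 5 higher and 6 lower early. The median of all genes was then 0.06 late and 0.07 early, and none of the called members changed direction under library size, DESeq2 or limma scaling.

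Of the members lower in let-7(n2853) in both windows, cpr-1, a cathepsin B of gut cells at V:11975551-11976756 on the plus strand, differed most; like the other genes given by library here that are not among the most abundant or the steepest in N2, it was chosen after its values were seen. It had 285, 159, 81.4, 246 and 422 CPM in let-7(n2853) at 18 to 26 h, against 389, 291, 269.5, 438 and 589 CPM in N2. At 28 to 36 h it had 308, 149, 238, 311 and 227 CPM in let-7(n2853), against 413, 331, 484, 443 and 313 CPM in N2. It was lower in let-7(n2853) at each of the 10 hours, and in the late window the highest let-7(n2853) library lay below the lowest N2 library. The log2 fold change was -0.86 ± 0.14 early (SE, adjusted p = 8.88e-05, edgeR) and -0.71 ± 0.14 late (adjusted p = 0.000471). The late values were 285 to 531 CPM in lin-41(xe11) and 308 to 598 CPM in the double mutant.

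The abundant aspartic proteases followed. For asp-1, the most abundant member, the early values were 1340.2, 1267, 1738, 2136 and 1429.5 CPM in let-7(n2853), against 1875, 1906, 2053, 2443 and 2437 CPM in N2. The late values were 1981, 1749, 2216, 2097 and 1688 CPM in let-7(n2853), against 2238, 2602, 2868, 1921 and 2213 CPM in N2. It was lower at each early hour and at 4 of 5 late hours, 34 h being the exception, and the ranges overlapped. The log2 fold change was -0.45 ± 0.08 early (SE, adjusted p = 0.000193) and -0.30 ± 0.08 late (adjusted p = 0.00689).

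The lysosomal asp-3 had 1265, 1326, 1538, 1872 and 1374 CPM early in let-7(n2853), against 1628, 1669, 1722, 2078 and 1937 CPM in N2. Late it had 1752, 1568, 1842, 1925 and 1660.4 CPM in let-7(n2853), against 1863, 2079, 2404, 1829.7 and 1899.9 CPM in N2. It too was higher at 34 h alone, with overlapping ranges, and its log2 fold change was -0.30 ± 0.06 early (adjusted p = 0.00138) and -0.22 ± 0.06 late (adjusted p = 0.0118). The late call of asp-3 was kept in 3 of 7 other settings and was lost under scaling by library size alone, with limma, with no term for the hour, with only the strains and hours compared, and without 30 or 32 h (adjusted p up to 0.37, edgeR or limma). The early values of asp-6 were 1091, 1078, 1073, 1428 and 1157 CPM in let-7(n2853), against 1326, 1308, 1282, 1653 and 1674 CPM in N2. Its late values were 1293, 972, 1266, 1256 and 941 CPM in let-7(n2853), against 1416, 1526, 1867, 1319.9 and 1304 CPM in N2. It was lower at all 10 hours, without overlap in the late window, and its log2 fold change was -0.31 ± 0.07 early (adjusted p = 0.00184) and -0.39 ± 0.07 late (adjusted p = 0.000121). Not all abundant aspartic proteases passed the test: asp-2 had a log2 fold change of -0.08 ± 0.07 early (95% interval -0.22 to 0.06) and -0.06 ± 0.07 late (-0.20 to 0.08), and asp-5, which lies in the same cluster as asp-6, -0.13 ± 0.08 early (-0.29 to 0.03) and -0.14 ± 0.08 late (-0.30 to 0.02).

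Lower in both windows were also the cathepsin B gene cpr-4 and the prolyl carboxypeptidase-like pcp-4. cpr-4, whose values are given above, was lower in let-7(n2853) at all 10 hours with overlapping ranges; the log2 fold change was -0.63 ± 0.14 early (adjusted p = 0.00185) and -0.46 ± 0.14 late (adjusted p = 0.0151). pcp-4 had 55.1, 57.5, 65.6, 81.9 and 77.4 CPM early in let-7(n2853), against 81.7, 74.8, 76.7, 107 and 110.0 CPM in N2, and late 92.1, 81.4, 104.17, 106 and 82.0 CPM in let-7(n2853), against 96.6, 118, 151, 85.6 and 97.2 CPM in N2. It was lower at each hour but 34 h, with a log2 fold change of -0.41 ± 0.09 early (adjusted p = 0.00121) and -0.24 ± 0.09 late (adjusted p = 0.0429), the late call being kept in 1 of 7 other settings and 3 of 10 fits without an hour. The late-rising asp-17 passed the test in the late window, with 1.04, 2.52, 1.496, 2.63 and 2.43 CPM in let-7(n2853), against 1.92, 2.77, 3.61, 4.23 and 4.46 CPM in N2, a log2 fold change of -0.76 ± 0.16 (adjusted p = 0.000817). It was lower at each of the 5 hours with overlapping ranges, and its fold change early was -0.02 ± 0.21 (95% interval -0.46 to 0.41). The change of its difference between the windows was -0.74 ± 0.26, which did not pass the test (p = 0.00845 in edgeR, adjusted p = 0.449).

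Higher in let-7(n2853) in both windows was cpr-8, the neighbour of cpr-5. It had 97.5, 98.8, 74.1, 84.4 and 105 CPM early in let-7(n2853), against 81.1, 81.7, 65.9, 74.3 and 77.0 CPM in N2. Late it had 84.3, 77.8, 85.6, 98.9 and 72.8 CPM in let-7(n2853), against 63.8, 64.5, 78.0, 59.3 and 44.9 CPM in N2. It was higher at all 10 hours with overlapping ranges, by 0.27 ± 0.10 early (adjusted p = 0.0462) and 0.43 ± 0.10 late (adjusted p = 0.0016), and its early call was kept in 4 of the 10 fits that leave out an hour. The cathepsin Z gene cpz-2 had 698, 719, 727, 699 and 665 CPM in let-7(n2853), against 659, 643, 645, 548 and 463 CPM in N2 in the late window, without overlap. Its log2 fold change was 0.24 ± 0.06 late (adjusted p = 0.00324) and 0.14 ± 0.06 early (adjusted p = 0.0887). asp-13, at 159 ± 46.4 CPM in let-7(n2853) and 122 ± 45.1 CPM in N2 (SD, n = 5 each), was higher by 0.37 ± 0.13 late (adjusted p = 0.0334), and pcp-1, at 151 ± 21.2 CPM in let-7(n2853) and 130.3 ± 24.1 CPM in N2, by 0.21 ± 0.06 (adjusted p = 0.0195), each at 4 of 5 hours.

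**Figure D4:**
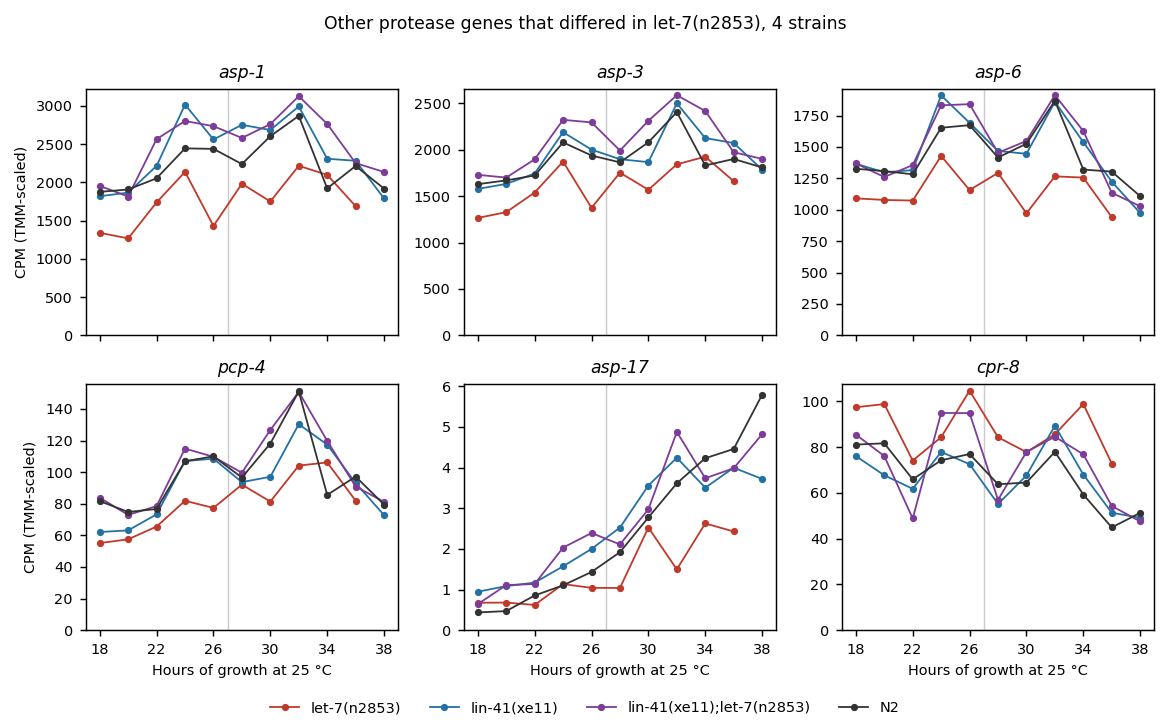
TMM-scaled CPM of 6 more protease genes by hours of growth at 25 °C, 1 point per library, in let-7(n2853), lin-41(xe11), the double mutant and N2. The let-7(n2853) points of asp-6 lie below those of N2 at all 10 hours, those of asp-1, asp-3 and pcp-4 at all hours but 34 h, and those of cpr-8 above N2 at all 10; asp-17 climbs in all strains and reached 5.79 CPM in N2 at 38 h.

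The remaining tested members did not pass in let-7(n2853). Largest among them were asp-14 late, at -0.55 ± 0.21 (adjusted p = 0.0624), cpr-3 early, at 0.32 ± 0.11 (adjusted p = 0.0511), and asp-12 late, at -0.28 ± 0.11 (adjusted p = 0.0696). The rhythmic cpz-1 (-0.17 ± 0.22, 95% interval -0.64 to 0.29), cpr-6 (-0.20 ± 0.18, -0.57 to 0.17) and cpl-1 (-0.27 ± 0.17, -0.63 to 0.09) had wide intervals in the late window. The intervals were narrow for asp-4 (-0.02 ± 0.06, -0.15 to 0.11), pcp-5 (-0.01 ± 0.06, -0.12 to 0.11), pcp-2 (0.00 ± 0.09, -0.18 to 0.18) and pcp-3 (-0.08 ± 0.06, -0.21 to 0.05). For cpr-5, cpr-9 and asp-8 the late values were 0.11 ± 0.09, 0.18 ± 0.12 and 0.02 ± 0.11.

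The fitted hours of the peaks in let-7(n2853) and N2 are given here beside these results. The first fitted peak was at 19.9 h in let-7(n2853) and 19.3 h in N2 for cpl-1, at 19.9 h in let-7(n2853) and 19.6 h in N2 for cpz-1, at 25.2 h in let-7(n2853) and 24.6 h in N2 for cpr-4, and at 25.9 h in let-7(n2853) and 25.4 h in N2 for cpr-1. These hours have no error of their own, and the libraries are 2 h apart. Neither their difference nor its part in the strain differences of any member was tested. The genes asp-1, asp-3, asp-6 and pcp-4 had no called rhythm, but a missing call does not show that a gene has none.

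The late count in let-7(n2853) rests in part on single hours and on the design. It was 5 without the libraries of 30 h and 7 without those of 32 h or of 36 h; cpr-1, asp-6, asp-17, cpr-8 and cpz-2 kept their call whichever hour was left out, while pcp-4 and asp-13 most often lost it. A fit also left out the let-7(n2853) library of 18 h and the double mutant library of 22 h. They were picked, after the data were seen, as of doubtful place in the rhythm, and no measure of that doubt is given here. Without them 10 were called late and 9 early. With no term for the hour 0 members were called in either window, and with only the 2 strains and hours compared 3 were called late.

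**Figure D5:**
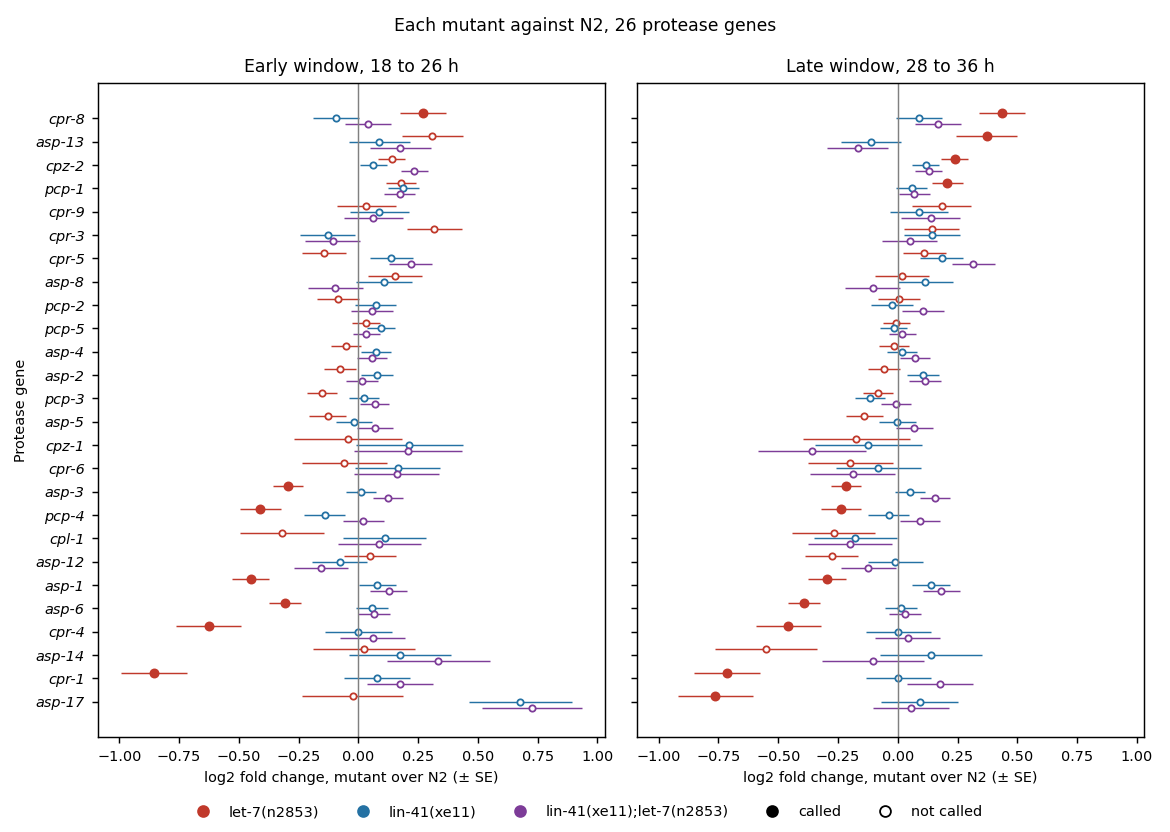
log2 fold change over N2 of the double mutant, lin-41(xe11) and let-7(n2853), with its SE, for the 26 protease genes in the early (left) and late (right) windows, 5 libraries per strain and window, filled where edgeR's adjusted p was under 0.05. Every filled point is let-7(n2853), from -0.86 for cpr-1 early to 0.43 for cpr-8 late.

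In the 2 strains that carry lin-41(xe11), no protease passed the test. For lin-41(xe11) against N2, edgeR called 0 members late, where 0.361% of all genes were called, and 0 early, where 0.0677% were; 0 members late and 2 early had an unadjusted p under 0.05, and DESeq2 and limma called 0 in each window. With scaling by library size alone edgeR again called 0 members, while the higher share of all called genes late was 17.9%, against 29.2%. For the double mutant against N2, edgeR called 0 late, where 0.888% of genes were called, and 0 early, where 0.143% were. There 4 members had an unadjusted p under 0.05 in each window, DESeq2 called cpr-5 late and cpz-2 early, and limma called 0. Scaling by library size alone again gave 0 members, with a higher share of 36.4% of all called genes early, against 57.9%. By edgeR cpr-5 had a log2 fold change of 0.32 ± 0.09 late (adjusted p = 0.105), with 894, 1207, 1802, 1515 and 792 CPM in the double mutant, against 796, 970.2, 1371, 981 and 738 CPM in N2, higher at 5 of 5 hours with overlapping ranges. cpz-2 had 0.23 ± 0.06 early (adjusted p = 0.131). asp-17 had 0.68 ± 0.22 in lin-41(xe11) (adjusted p = 0.507) and 0.73 ± 0.21 in the double mutant (adjusted p = 0.233) early, above N2 at 5 of 5 hours in both.

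For cpr-1 the late log2 fold change was 0.00 ± 0.14 in lin-41(xe11) (95% interval -0.28 to 0.29) and 0.18 ± 0.14 in the double mutant (-0.11 to 0.46). For asp-1 it was 0.14 ± 0.08 (-0.02 to 0.30) in lin-41(xe11) and 0.18 ± 0.08 (0.02 to 0.34) in the double mutant. Over its libraries asp-1 had 1789, 2308 and 3016 CPM (lowest, median, highest) in lin-41(xe11) and 1814, 2579.9 and 3125 CPM in the double mutant, asp-3 had 1577, 1897 and 2499 and 1699, 1991 and 2586 CPM, and asp-6 had 973, 1446 and 1910.4 and 1028, 1454 and 1912 CPM in these strains. For cpl-1 the values were 376, 668 and 1047 CPM in lin-41(xe11) and 281, 627 and 1091 CPM in the double mutant, for cpr-8 49.1, 67.7 and 89.4 and 47.6, 76.9 and 94.98 CPM, and for cpz-2 499, 661 and 775 and 541, 689 and 881 CPM.

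Set against the double mutant, which carries the same let-7 allele, let-7(n2853) was lower for cpr-1, asp-17, cpr-4, asp-1, asp-3, asp-6 and pcp-4, and for asp-5 in a call that depends on the setting. In the late window 10 of 26 members were called, 2 higher and 8 lower, where 23% of all genes were (11.4% higher, 11.6% lower). With scaling by library size alone the higher share of all called genes was 75.3%, against 49.7%, the median of all genes was 0.10 log2, and 4 members were higher and 7 lower. The log2 fold change was -0.89 ± 0.14 for cpr-1 (SE, adjusted p = 4.42e-05, edgeR), -0.82 ± 0.16 for asp-17, -0.50 ± 0.14 for cpr-4, -0.48 ± 0.08 for asp-1, -0.42 ± 0.07 for asp-6, -0.37 ± 0.06 for asp-3, -0.33 ± 0.08 for pcp-4 and -0.21 ± 0.08 for asp-5, and 0.54 ± 0.13 for asp-13 and 0.27 ± 0.10 for cpr-8. The asp-5 call was kept in 1 of 7 other settings and 2 of 10 fits without an hour (adjusted p up to 0.31), and the cpr-8 call in 5 of 7 and 5 of 10. For asp-1 and asp-3 the libraries of the 2 strains did not overlap. This comparison and the one with N2 share the let-7(n2853) libraries, so they are not independent. With no term for the hour 1 member was called. For the double mutant against lin-41(xe11) edgeR, DESeq2 and limma called 0 members late, 0 had an unadjusted p under 0.05, and 0.0903% of all genes were called.

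The double mutant minus lin-41(xe11) was set against let-7(n2853) minus N2 in 1 test of that difference, added after the data were seen. In the early window 6 of 26 members passed, all with positive differences, where 8.89% of all genes did (5.17% positive, 3.72% negative). They were cpr-1, cpr-4, pcp-4, asp-1, asp-3 and asp-6. In the late window 4 passed, cpr-1, asp-17, asp-6 and asp-3, again all positive, where 7.94% of all genes did (4.62% positive, 3.32% negative). With no term for the hour none of these calls was kept in either window (0 of 6 and 0 of 4). With an hour left out, 4 to 6 of the 6 early calls and 1 to 4 of the 4 late calls were kept, 1 without 32 h and 2 without 30 h. The early call of asp-6 was kept in 1 of 6 other settings and 6 of 10 fits without an hour, and the late call of asp-17 in 2 of 6 and 2 of 10. This comparison again uses the let-7(n2853) libraries of the comparisons above.

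No member's difference from N2 changed between the windows by edgeR's test, in any mutant. Late minus early, 1 member in the double mutant, 1 in lin-41(xe11) and 2 in let-7(n2853) had an unadjusted p under 0.05, DESeq2 and limma called 0, and 0.00752% of all genes were called in the double mutant, 0.0226% in lin-41(xe11) and 0.0827% in let-7(n2853). That member was asp-17 in both strains with lin-41(xe11), and in let-7(n2853) they were asp-17 and asp-12.

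Some other gut and lysosome genes also differed in let-7(n2853), in both directions. For these and the next lists, the shares of all genes were 10.4% higher and 12.6% lower late, and 8.79% higher and 9.73% lower early. Of 17 intestine markers, 2 were higher and 6 lower late, and 2 higher and 3 lower early, with a median of -0.13 late and -0.09 early. Lower were act-5, an actin of the gut brush border (-0.57 late, -0.60 early), and mtl-2, a gut metallothionein (-0.70 late, -0.62 early), and inx-16, a gut gap junction gene, was higher (0.35 late, 0.26 early). Their summed level was 2504 to 3418 CPM in let-7(n2853) and 2830 to 4173 CPM in N2 late, and 2932 to 3613 CPM in let-7(n2853) and 3360.2 to 4288 CPM in N2 early. Of 34 tested lysosome genes, 3 were higher and 9 lower late (median -0.18), and 2 higher and 10 lower early (median -0.11). Named by smallest p, glo-1, needed to form gut granules, was higher late (0.55), gba-4 (-0.33) and the cystine exporter gene ctns-1 (-0.32) lower late, and asah-1 (-0.49), the proton pump subunit gene vha-13 (-0.33) and lmp-1 (-0.40), for a membrane protein of lysosomes, lower early. Of the 2 cystatin genes neither was called in either window.

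Of the 14 other peptidase and peptide transporter genes, 2 were higher and 0 lower late, the cathepsin-like tag-196 (0.37) and the dipeptidyl peptidase gene dpf-4 (0.17). Early 1 was higher, the aminopeptidase gene lap-1 (0.19), and 1 lower, the gut peptide transporter gene pept-1 (-0.26). Germline genes were lower late, 8 of 12 with none higher, and 2 of 12 early, with summed levels of 886 to 1624 CPM in let-7(n2853) and 925 to 2129.6 CPM in N2 late. Of the 10 pharynx genes 3 were lower in each window, of the 8 epidermis genes none was called, of the 7 muscle genes 1 was lower in each window, and of the 10 neuron genes 2 were higher and 1 lower in each. No listed gene of these tissues was at 0 in all libraries. The part of these tissues in the protease differences was not tested. None of these listed genes was called in lin-41(xe11) or the double mutant in either window.

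In N2 itself these lists moved apart along the course, where 33% of all genes had a called rise and 27.3% a called fall. All 12 germline genes rose (median slope 0.35 log2 per 2 h), while 9 of 10 neuron, 6 of 10 pharynx and 6 of 8 epidermis genes fell with none rising. The gut lists were mixed, with 2 of 17 intestine genes rising and 4 falling, and 10 of 34 lysosome genes rising and 10 falling. Of the other peptidases 7 of 14 rose and 4 fell, and of the cystatins cpi-2 rose. Muscle had 1 rising and 3 falling of 7. The CPM of a protease is a share of this changing total; how far the growth of the germline moves the slopes of the proteases was not tested.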

How the data were processed

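Whole-worm RNA was depleted of ribosomal RNA and made into libraries with the ScriptSeq v2 kit, per the labels' protocols. The authors deposited raw counts per gene for 43 libraries and log2 values. These values equal the log2 of counts scaled to a total plus a pseudocount of 8 (tested on the files, largest deviation 5e-09). The total shared by the let-7(n2853) libraries was higher than the one shared by the libraries of the other strains. As deposited, the log2 values of let-7(n2853) are thus not directly comparable with those of the other strains. The aligner, counter, strand setting and genome build are not given in the sources used here. Names came from a WormBase table (18778 IDs with a symbol), positions and exon lengths from Ensembl release 115. The members and gene lists were chosen with earlier results of these data known.

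Deposited counts were scaled by TMM and tested with edgeR 4.0.16 (R 4.3.3), quasi-likelihood, Benjamini-Hochberg adjustment over 13295 genes with a mean of at least 1 CPM, threshold 0.05. The strain fit held 40 libraries, each hour as a factor (the block that pairs libraries of 1 hour across strains, from the labels) and a term per mutant and window, with 24 residual degrees of freedom. The slope and rhythm fits held the libraries of 1 strain, with 7 residual degrees of freedom in N2. An SE is the log2 fold change over the square root of F, and a 95% interval uses 24 degrees of freedom. DESeq2 1.42.0, limma 3.58.1 (log2 values), library-size scaling, no filter, other designs and leaving out each hour were alternatives. For limma the log2 values of let-7(n2853) were first shifted to the total of the other strains. The pseudocount had been added before that shift, so it is smaller relative to the counts in let-7(n2853). This matters most for members of few counts, such as asp-17 and asp-12. The rhythm and background tests, the periods of 7 and 9 h and the fit without 2 libraries were added after the data were seen.

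Values by library are given for the 4 members with the highest mean CPM, the 3 steepest rises and 2 falls in N2 and any called member at a log2 fold change of 1 or more; other genes shown so were chosen after their values were seen. Library totals (given with the strains) limit precision for members of few counts. Among 903 pairs of libraries chi-square per degree of freedom was at least 4.44, so no 2 libraries were counted as 1. Counts were also simulated for let-7(n2853) against N2 late, with 13295 genes. Recovered were 90% of 100 genes changed 2-fold and 99% of 100 changed 4-fold, with 9 false calls. The simulation held no batch and no shift of the rhythm between strains. No member differed from N2 by 2-fold or more, so these shares do not give the recovery of the smaller changes of the members. Figures were drawn with matplotlib 3.10.9. No sequence was printed.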

Additional observations from a re-analysis of the deposited data

Results flagged for a closer look

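A library stood far from the other 4 of its strain and window in 7 of 208 groups of 5 libraries; chance flags about 1 in 20 groups. In the early window asp-5 was high at 24 h in lin-41(xe11), at 1096 CPM, and in N2, at 1067 CPM, and asp-6 was high at 24 h in let-7(n2853), at 1428 CPM. cpz-1 was high at 20 h in the double mutant, at 1355 CPM against 702 CPM in the next library. pcp-5 was low at 18 h in N2, at 52.7 CPM. In the late window pcp-2 was low at 36 h in lin-41(xe11), at 179.9 CPM, and asp-12 was high at 32 h in N2, at 7.63 CPM.

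The difference made by let-7(n2853) in the lin-41(xe11) background (double mutant minus lin-41(xe11)) was set against the one in the wild-type background (let-7(n2853) minus N2), with edgeR's test of the difference itself; a positive value means a higher double mutant relative to its own background. In the early window 6 members passed, all positive, where 8.89% of all genes did. The log2 differences were 0.95 ± 0.20 for cpr-1 (SE, adjusted p = 0.00233), 0.69 ± 0.19 for cpr-4, 0.57 ± 0.12 for pcp-4, 0.50 ± 0.11 for asp-1, 0.41 ± 0.09 for asp-3 and 0.31 ± 0.09 for asp-6. In the late window 4 passed, all positive, where 7.94% of all genes did. They were 0.89 ± 0.19 for cpr-1 (adjusted p = 0.00491), 0.73 ± 0.22 for asp-17, 0.41 ± 0.09 for asp-6 and 0.32 ± 0.09 for asp-3. With scaling by library size alone 3 members were higher and 2 lower late, and 5 higher and 0 lower early. The higher share of all called genes was then 30.4% late, against 58.2% with TMM, and 28.0% early, against 58.1%. The late call of asp-17 was lost under that scaling, with no filter and with DESeq2, and was kept in 2 of 10 fits with an hour left out. The early call of asp-6 was kept in 1 of 6 other settings (adjusted p up to 0.79) and 6 of 10 fits with an hour left out, and that of cpr-4 in 6 of 10. With no term for the hour none of these calls was kept. These differences use the deeper let-7(n2853) libraries, so strain and batch cannot be told apart in them.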

How the results depend on the processing

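None of the 1194 values of called members reversed under any alternative. Those of the rhythm test are fitted ranges from trough to peak, which are always positive and could not reverse. The block of hours, which pairs libraries across strains, decided the strain counts: with no replicate block the count of called members was 0 for let-7(n2853) against N2 late and early, and 1 (asp-3) for let-7(n2853) against the double mutant; none of the 6 early and 4 late calls of the test of the let-7(n2853) effect between backgrounds was kept without it either, and the counts that were 0 with it were 0 without it. The cause was not tested. With only the strains and hours compared, the late count for let-7(n2853) against N2 was 3. The early count was 11 with library size alone and 12 with limma. DESeq2 called 1 member for the double mutant against N2 in each window. Leaving out the libraries of 1 hour at a time gave 5 to 11 members late and 6 to 9 early for let-7(n2853) against N2, 7 to 10 against the double mutant, and 0 for the comparisons with no call. Of the calls of the test between backgrounds it kept 4 to 6 of 6 early and 1 to 4 of 4 late. The N2 slope count was 6 with linear hour alone and 7 to 10 with an hour left out. The rhythm count in N2 was 9 with DESeq2, 0 at periods of 7 and 9 h and 0 to 4 with an hour left out. It was 0 at 9 h and 8 to 11 with an hour left out in let-7(n2853), where 7 h kept 8 of the 10 calls. In lin-41(xe11) the rhythm count was 0 at 7 and 9 h and 6 to 11 with an hour left out. In the double mutant it was 9 with DESeq2, 4 with limma and 0 to 6 with an hour left out. With 1 library per strain and hour, neighbouring hours stand for replicates, and members of few counts, such as asp-17, carry the widest error.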
